A study of Mus musculus with 6 samples.

Results

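The genes described here encode the 9 neuronal nicotinic acetylcholine receptor subunits Chrna2, Chrna3, Chrna4, Chrna5, Chrna6, Chrna7, Chrnb2, Chrnb3 and Chrnb4. They were found by symbol in the probe set annotation, which gave each of them exactly 1 probe set and no probe set shared with another gene, so 9 of 41345 probe sets and 9 of 22180 genes with a probe set of their own are considered. RNA came from ventral midbrain of male mice 2 months of age, from 3 samples labelled Bach1 KO and 3 labelled WT, and each was hybridised to an Affymetrix mouse gene array. The labels name no strain, no treatment and no other allele, and they do not say how Bach1 was disrupted, whether in all cells, or whether each replicate came from an animal of its own, so p-values measure only the spread between these samples. All values are log2 expression levels, so a difference of 1 is a doubling.

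Nicotinic acetylcholine receptors are pentameric cation channels that open when acetylcholine or nicotine binds. Alpha and beta subunits combine into receptor types with different locations. The pairing of alpha4 with beta2 is the common high-affinity type of the brain, and alpha7 can form a receptor by itself. Alpha6 and beta3 are known for their concentration in the dopamine neurons of the ventral midbrain, where receptors on cell bodies and terminals adjust firing and dopamine release. Alpha5 and beta3 are accessory subunits that join receptors of other subunits without forming a channel alone. Alpha3 and beta4 are typical of autonomic ganglia and of the medial habenula and its target, the interpeduncular nucleus, which lies at the midline of the ventral midbrain. BACH1 is a heme-binding transcriptional repressor of antioxidant and iron genes, and the comparison addressed which transcripts of the region differ when its gene is knocked out.

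Dopamine neuron markers were bright in this tissue. Th, whose product tyrosine hydroxylase sets the pace of dopamine production, lay at the 98.1th percentile of probe set means, the dopamine transporter gene Slc6a3 at the 99.1th and the vesicular transporter gene Slc18a2 at the 96.1th. The Bach1 probe set was not lower on the knockout-labelled arrays (log2 difference 0.11, 95% interval -0.08 to 0.31), and whether it reads the disrupted part is not given in the sources used here, so directions follow the labels. Hmox1, the heme oxygenase gene known as a BACH1 target, was higher by 1.95 on the log2 scale (limma, adjusted p = 0.0181), a call that was lost with any 1 array left out (adjusted p from 0.134 to 0.233). Marker scores differed between arrays of the same group. A score over 22 dopaminergic neuron markers, the mean of their log2 levels after subtracting each gene's wild-type mean, read 0.101, -0.101 and 0.243 for replicates 1, 2 and 3 of the knockout label and 0.0514, 0.0352 and -0.0866 on wild-type replicates 1, 2 and 3. Knockout-labelled replicate 2 also had a score of 0.762 for 6 measured cortex and hippocampus markers, against -0.283 to 0.252 on the other arrays. In whole tissue, fewer cells of a type and less RNA per cell cannot be told apart.

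Chrna3, Chrna5 and Chrnb4 lie side by side on chromosome 9, with Chrna5 and Chrna3 overlapping at their ends in the RefSeq gene table, and Chrnb3 lies beside Chrna6 on chromosome 8. RefSeq promoter windows (build GRCm38.p6) were on hand for 6 of the 9 genes, 7 windows in all. Those of the chromosome 9 genes are shown because these genes are neighbours described together below. Each sequence is the 250 bases before an annotated transcription start, 5′ to 3′ on the gene's strand, and Chrna5 has 2 starts. Capitals mark a match to the antioxidant response element core TGACNNNGC.
Chrna3, chr9:55026563-55026812, minus strand: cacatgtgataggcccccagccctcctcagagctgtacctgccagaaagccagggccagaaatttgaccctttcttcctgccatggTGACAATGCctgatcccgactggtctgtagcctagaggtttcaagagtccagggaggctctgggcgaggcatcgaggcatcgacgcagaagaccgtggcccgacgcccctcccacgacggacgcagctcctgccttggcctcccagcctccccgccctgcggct
Chrna5 first start, chr9:54980630-54980879, plus strand: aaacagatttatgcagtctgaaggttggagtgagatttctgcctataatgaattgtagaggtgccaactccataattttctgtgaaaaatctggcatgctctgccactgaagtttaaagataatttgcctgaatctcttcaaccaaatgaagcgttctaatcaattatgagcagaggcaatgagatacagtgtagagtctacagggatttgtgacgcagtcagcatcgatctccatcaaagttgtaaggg
Chrna5 second start, chr9:54981238-54981487, plus strand: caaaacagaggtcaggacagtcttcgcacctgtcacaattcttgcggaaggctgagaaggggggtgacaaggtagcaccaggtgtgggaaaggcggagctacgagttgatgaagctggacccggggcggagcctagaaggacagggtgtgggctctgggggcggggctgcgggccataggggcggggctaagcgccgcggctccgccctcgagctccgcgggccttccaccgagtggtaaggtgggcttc
Chrnb4, chr9:55048545-55048794, minus strand: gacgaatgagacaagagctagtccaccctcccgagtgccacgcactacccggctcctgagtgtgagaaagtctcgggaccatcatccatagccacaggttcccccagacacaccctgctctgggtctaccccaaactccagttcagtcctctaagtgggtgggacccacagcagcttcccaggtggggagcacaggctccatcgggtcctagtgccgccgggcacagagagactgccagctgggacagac

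The promoters differed in base composition. The first Chrna5 window had 40% G and C bases and 3 CpG dinucleotides, and the second had 65.2% and 17. The Chrna3 window had 63.2% and 13 CpG, the Chrnb4 window 61.2% and 8, and the median over 32851 promoter windows of the table was 52.4% and 6.0. The antioxidant core was searched on both strands because BACH1 is known to bind elements of this kind, and it was found in 3 of the 7 windows, those of Chrna3, Chrna7 and Chrnb2, in the 300 bases that include 50 after the start. Over all windows of that length, 12.4% held it. In Chrna3 the match TGACAATGC began at base -164 from the start on the gene's strand, and in Chrna7 and Chrnb2 it lay on the opposite strand, read on the gene's strand as GCGCTGTCA from -73 and GCCCAGTCA from -70. The longer TGANTCAGC (present in 1.19% of all windows), the NR4A element AAAGGTCA (1.51%) and the forkhead motif TGTTTAC (3.65%) had 0 matches in the 7 windows on either strand, which says only that these letters are not in them.

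All 9 subunit probe sets had a mean above the 40th percentile of all probe set means (5.07). For Chrna2 that rests on knockout-labelled replicates 1 and 3, since its other 4 arrays lay under 5.07. Chrna4 lay at the 96.7th percentile, Chrnb2 at the 94.0th, Chrna6 at the 91.3th, Chrna3 at the 84.5th, Chrnb3 at the 82.9th, Chrna7 at the 81.0th, Chrna5 at the 63.6th, Chrnb4 at the 62.4th and Chrna2 at the 42.7th. Probes differ in how brightly they read the same amount of RNA, so these positions show how far each probe set stood above the dim range and give no ranking of the subunits' RNA. The muscle and sensory subunits, by the same measure, had 1 of 7 probe sets above the 40th percentile.

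No subunit passed the test between the groups. Limma called 0 of 9 at an adjusted p under 0.05, where 0.00726% of all probe sets were called, and the smallest adjusted p of the 9 was 0.572. At an unadjusted p under 0.05 there was 1, Chrna2, where 8.27% of all probe sets lay under that value, 4.97% with higher and the rest with lower means. Means were higher on the knockout-labelled arrays for 7 and lower for 2 subunits, while 40.7% of the 15790 genes above the 40th percentile had a higher mean, and without Chrna2, which passed that level through its high group, it was 6 of 8. The median log2 fold change of the 9 was 0.10, against 0.00050 over all probe sets. In 2 subunits, Chrna2 and Chrnb4, the groups did not overlap, both in the higher direction, where 14.3% of all probe sets separated in either direction and 7.4% in the higher one.

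**Figure D1:**
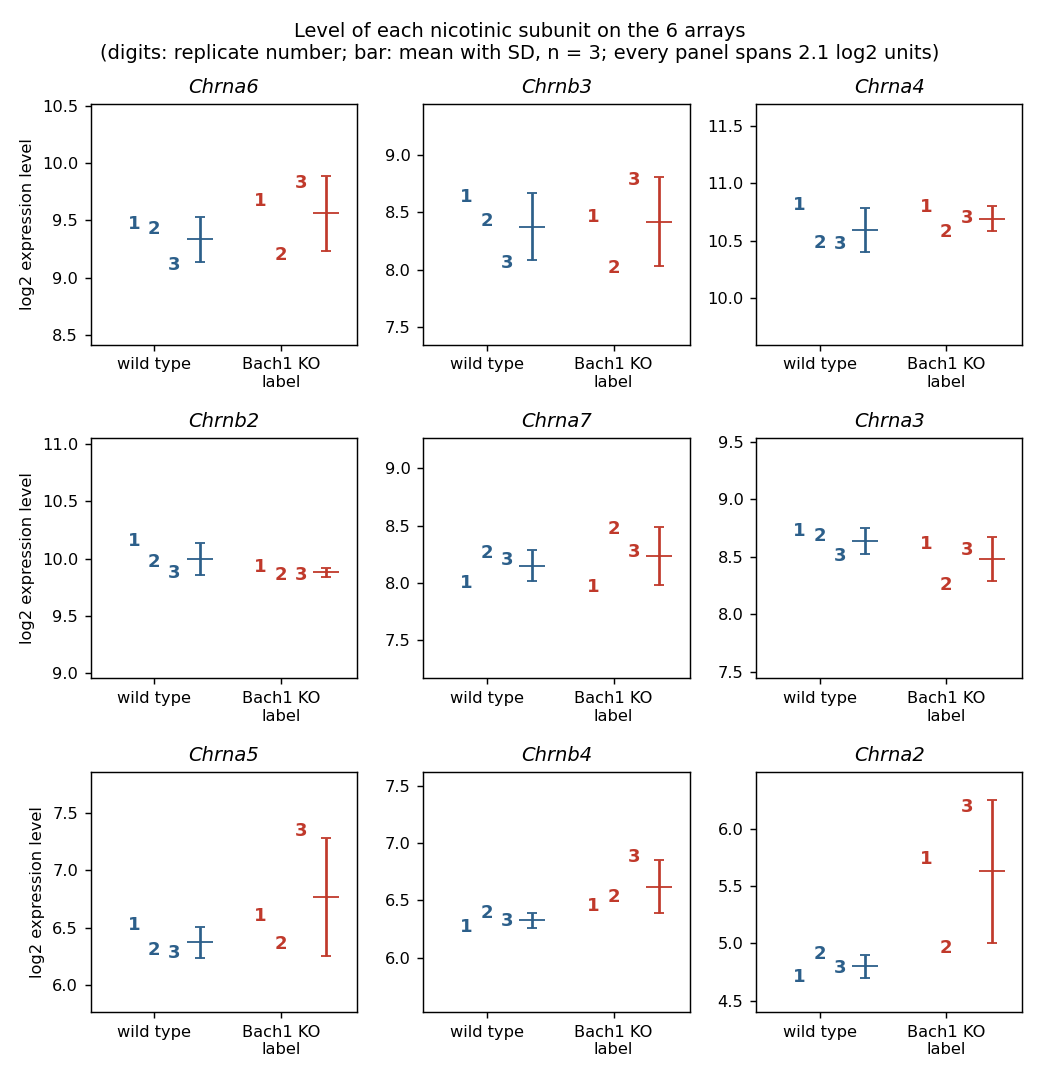
Log2 level of each subunit on the 6 arrays, wild type in blue and Bach1 KO label in red, with digits for the replicate number and bars for the group mean with its SD (n = 3). Chrna2 and Chrnb4 are the panels in which the red values lie above all blue ones, and knockout-labelled replicate 3 is the highest array for Chrna6, Chrnb3, Chrna5, Chrnb4 and Chrna2.

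Among the subunits of dopamine neurons, Chrna6, which encodes the alpha6 subunit, had levels of 9.67, 9.19 and 9.82 on knockout-labelled replicates 1, 2 and 3. Its wild-type levels were 9.47, 9.42 and 9.11. Replicates 1 and 3 of the knockout label were the highest arrays and wild-type replicate 3 the lowest, with knockout-labelled replicate 2 within the wild-type range. The means were 9.56 ± 0.33 against 9.34 ± 0.19 (SD, n = 3 each). The log2 fold change of 0.23 (SE 0.19, 95% interval -0.24 to 0.69; limma, adjusted p = 0.776) did not pass, and the interval spans a fold of 0.849 to 1.61. It moved from 0.10 without knockout-labelled replicate 3 to 0.41 without knockout-labelled replicate 2.

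Chrnb3, the neighbouring gene for the beta3 subunit, had knockout-labelled levels of 8.46, 8.01 and 8.78 and wild-type levels of 8.64, 8.43 and 8.06. The groups covered nearly the same range, with the highest and the lowest array both labelled knockout. Its log2 fold change was 0.04 (95% interval -0.53 to 0.62; limma, adjusted p = 0.973), and it was -0.0025 when each array was centred on its own median, -0.14 without knockout-labelled replicate 3 and 0.25 without knockout-labelled replicate 2. All 9 subunits varied more over the 6 arrays than most probe sets of like brightness, with SDs above those of 69.0 to 97.4% of them. The SD of Chrna6 over all arrays, 0.27, exceeded that of 97.4% of probe sets in its bin of mean level (10 bins of equal number), and the SD of Chrnb3, 0.31, exceeded that of 96.5% in its own, with Chrna2 (97.3%) and Chrna5 (94.7%) close to them.

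Chrna6 had the highest correlation of the 9 subunits with the dopaminergic score, though no correlation passed after adjustment. Over the 6 arrays it had Pearson r = 0.975 (exact permutation p = 0.00417, two-sided) and Spearman rho = 0.943 (exact permutation p = 0.0167), and without knockout-labelled replicates 2 and 3, the arrays farthest from the median score, r was 0.992 on the remaining 4. Chrnb3 had r = 0.929 (exact permutation p = 0.00972) and rho = 0.943 (exact permutation p = 0.0167), with r = 0.85 without the same arrays. Chrna5 had r = 0.888 (exact permutation p = 0.0111) and rho = 0.829 (exact permutation p = 0.0583), with r = 0.814 without them. These were among 18 relations computed, the 9 subunits with the dopaminergic score and with a score of 6 medial habenula markers. After Benjamini-Hochberg adjustment the p of r was 0.05 for each of these 3, at and not below the threshold, and the p of rho was 0.15 for Chrna6 and Chrnb3 and 0.21 for Chrna5. Each group holds too few arrays for a value within it.

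The widespread subunits had lower r with the same score. Pearson r was 0.567 for Chrna4 (exact permutation p = 0.247), 0.0558 for Chrnb2 (p = 0.91, exact) and -0.336 for Chrna7 (p = 0.515, exact), with rho of 0.6, -0.0286 and -0.371. Whether these correlations differ from those of Chrna6 and Chrnb3 was not tested. Chrna2 had r = 0.82 (exact permutation p = 0.0514), Chrnb4 r = 0.647 (exact permutation p = 0.178) and Chrna3 r = 0.512 (exact permutation p = 0.304).

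**Figure D2:**
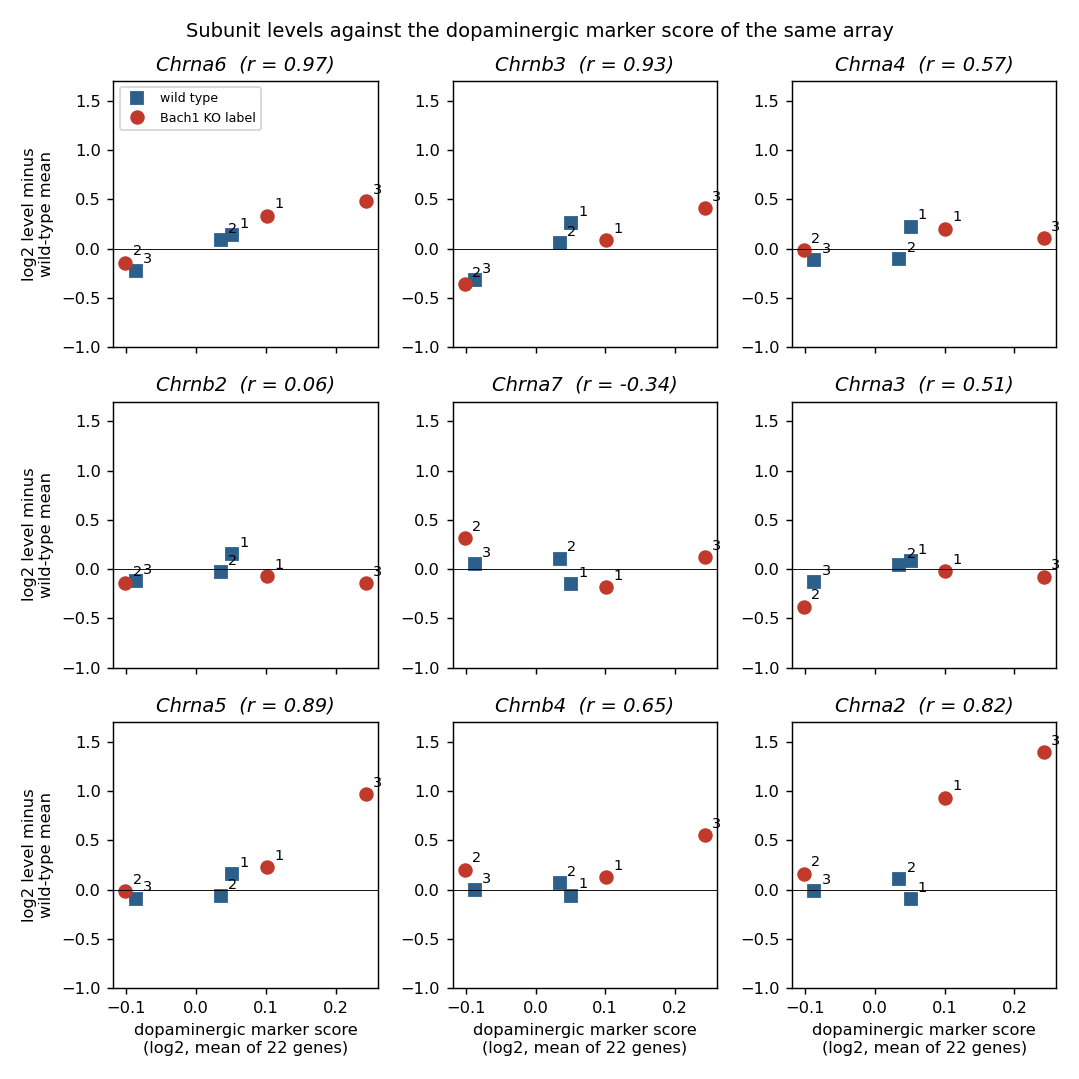
Level of each subunit minus its wild-type mean (log2, vertical axis) against the dopaminergic marker score of the same array (log2, horizontal axis), with blue squares for wild type, red circles for the Bach1 KO label and digits for the replicate. The points of Chrna6 and Chrnb3 lie close to a rising line across both groups (r = 0.975 and 0.929), and those of Chrnb2 show no slope (r = 0.0558).

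Among single genes, the closest to Chrna6 over the 6 arrays was Slc10a4, a vesicular transporter-like gene of monoamine and cholinergic neurons and a member of the dopaminergic list (r = 0.998), followed by the orphan receptor gene Gpr139 and the telomerase RNA gene Terc (r = 0.994 for both). Th had r = 0.988 with Chrna6, Slc18a2 0.983 and Slc6a3 0.96. Of the 22 dopaminergic markers, 6 had r above 0.9 with Chrna6, namely Slc10a4, Th, Slc18a2, Ret, Slc6a3 and En2, where 0.842% of the 15789 genes searched did. For Chrnb3 the count was 3 of 22, En2, Ret and Slc10a4, where 1.03% of genes did, and for Chrna5 it was 4 of 22, Foxa2, En1, Sncg and Ddc, where 0.944% did. It was 2 of 22 for Chrna2, Ddc and En1 (0.633% of genes), 2 of 22 for Chrna3, Lmx1a and Sox6 (2.65%), and 0 of 22 for Chrna4, Chrnb2, Chrna7 and Chrnb4. High r was not limited to dopaminergic markers. Chrna6 had a median r of 0.843 with Gata3, Htr1a and Gata2 (0.989), the 3 genes of the serotonergic list bright enough for this search. Its median r with the 22 dopaminergic markers was 0.803. Whether Gata3, Htr1a and Gata2 read serotonin cells in this tissue was not tested. Chrnb3 had medians of 0.806 with the same 3, 0.789 with 5 oligodendrocyte and 0.759 with the dopaminergic markers. Chrna5 had medians of 0.802 with the same 3 and 0.744 with the dopaminergic markers. Its r also exceeded 0.9 with Pou4f1 (0.989), Chrm2 (0.969), Gata3 (0.959) and the microglia marker Tmem119 (0.922). Slc6a4 and Tph2, the serotonin transporter and synthesis genes, were too dim for this search. Their r was 0.806 and 0.666 with Chrna6 and 0.489 and 0.413 with Chrnb3. With 6 arrays, correlations this high arise for many genes, and between 100 and 419 genes exceeded 0.9 with a given subunit. Genes closest to Chrnb3 were Ankib1 (r = 0.999), Pbx3 (0.989) and Snai2 (0.987).

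Chrna6 and Chrnb3 were also set against the dopaminergic markers of the same array, and their values overlapped between the groups. The level of Chrna6 minus the mean level of the 22 markers came to 1.11, 0.84 and 1.12 for replicates 1, 2 and 3 of the knockout label and 0.97, 0.93 and 0.74 on wild-type replicates 1, 2 and 3. Knockout-labelled replicates 1 and 3 were again above the wild-type range and replicate 2 inside it. The difference of 0.15 between the group means had an exact permutation p = 0.3 (two-sided), where 0.1 is the smallest p that 3 against 3 arrays allow. The same measure for Chrnb3 was -0.12 ± 0.21 against -0.08 ± 0.22 (SD, n = 3), a difference of -0.04 (exact permutation p = 0.7), and its values overlapped throughout. With Th, Slc6a3 and Slc18a2 alone as the reference, the differences were 0.07 for Chrna6 (exact permutation p = 0.4) and -0.11 for Chrnb3 (exact permutation p = 0.5).

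Among the widespread subunits, Chrna4 had levels of 10.79, 10.58 and 10.70 on the knockout-labelled and 10.81, 10.48 and 10.48 on the wild-type arrays. The highest array was wild-type replicate 1 and the ranges overlapped. The log2 fold change was 0.10 (95% interval -0.20 to 0.40; limma, adjusted p = 0.859), or 0.21 without that array and 0.04 without wild-type replicate 3. Chrnb2, its common partner, had the smallest SD of the 9, 0.11 over all arrays, with knockout-labelled levels of 9.93, 9.86 and 9.86 and wild-type levels of 10.15, 9.97 and 9.88. Wild-type replicate 1 was again the highest array, and the log2 fold change was -0.12 (95% interval -0.36 to 0.12; limma, adjusted p = 0.77), or -0.04 without that array and -0.18 without wild-type replicate 3. The intervals of these subunits span folds of 0.868 to 1.32 and of 0.782 to 1.09. Wild-type replicate 1 also had the highest score of 6 thalamus markers, 0.366 against -0.187 to 0.122 on the other arrays. With Chrna4, 2 of these 6, Gbx2 (r = 0.944) and Tcf7l2, had r above 0.9, where 0.766% of the genes searched did. With Chrnb2, 0 of the 6 did. The part of thalamic tissue in these levels was not tested.

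Chrna7, which encodes the subunit of homomeric receptors, had levels of 7.97, 8.47 and 8.27 on the knockout-labelled and 8.0, 8.26 and 8.20 on the wild-type arrays. Knockout-labelled replicates held both the lowest and the highest value. Its log2 fold change was 0.08 (95% interval -0.28 to 0.45; limma, adjusted p = 0.907), and it was -0.03 without knockout-labelled replicate 2 and 0.22 without knockout-labelled replicate 1. Knockout-labelled replicate 2 had the highest Chrna7 level and also the highest cortex and hippocampus score (0.762). Of the 5 such markers above the 40th percentile, 2 had r above 0.9 with Chrna7 over the 6 arrays, where 1.07% of genes searched did. They were the neuronal transcription factors Neurod6 (r = 0.975) and Neurod2, and the median r of the 5 was 0.879, against -0.0946 over all genes searched. Strong r with Chrna7 was not limited to this list, as the astrocyte marker Slc1a2 had 0.927, Chrm1 0.881 and 5 oligodendrocyte markers a median of -0.874. The part of cortical or hippocampal tissue in the Chrna7 level was not tested. Averaged over Chrna4, Chrnb2 and Chrna7, the deviation from the wild-type mean was 0.02 ± 0.04 on the knockout-labelled arrays against an SD of 0.07 on the wild-type arrays, while the average of Chrna6 and Chrnb3 was 0.14 ± 0.36 with a wild-type SD of 0.24 (n = 3 each). The average of Chrna3, Chrna5 and Chrnb4 was 0.18 ± 0.28 with a wild-type SD of 0.07. Members of an average can offset each other, as Chrna4 and Chrna7 had r = -0.661 over the 6 arrays.

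**Figure D3:**
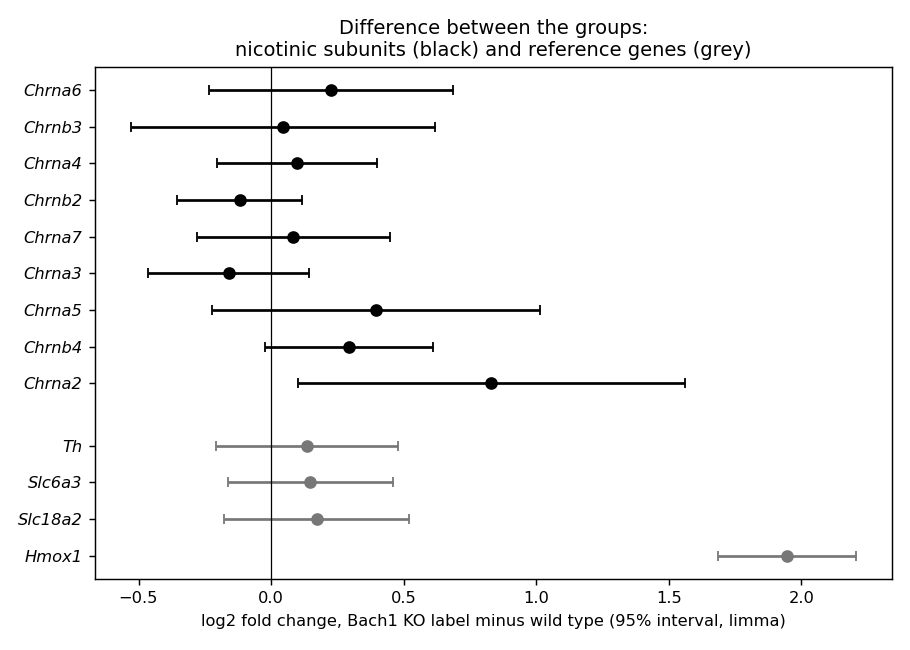
Log2 fold change (Bach1 KO label minus wild type) with its 95% interval from limma for the 9 subunits in black and for Th, Slc6a3, Slc18a2 and Hmox1 in grey. The interval of Chrna2 (0.10 to 1.56) lies above 0 before adjustment, those of the other 8 subunits include 0, and Hmox1 stands apart at 1.95.

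The 3 neighbours on chromosome 9 had log2 fold changes of both signs, none passed the test, and differences between them were not tested. Chrna3, which encodes the ganglionic alpha3 subunit, had knockout-labelled levels of 8.61, 8.26 and 8.56 and wild-type levels of 8.72, 8.68 and 8.51. Knockout-labelled replicate 2 was the lowest array, and the log2 fold change was -0.16 (95% interval -0.46 to 0.14; limma, adjusted p = 0.758), or -0.05 without that array and -0.23 without knockout-labelled replicate 1. Chrna5, the accessory alpha5 subunit, had levels of 6.6, 6.36 and 7.34 against 6.53, 6.31 and 6.28. Knockout-labelled replicate 3 stood well above the other 5 arrays, which lay between 6.28 and 6.6. The log2 fold change of Chrna5 was 0.40 (95% interval -0.22 to 1.01; limma, adjusted p = 0.711), and it was 0.11 without that replicate and 0.60 without knockout-labelled replicate 2.

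Chrnb4, the beta4 subunit that pairs with alpha3, had levels of 6.45, 6.53 and 6.88 on the knockout-labelled and 6.27, 6.39 and 6.32 on the wild-type arrays. All knockout-labelled values lay above all wild-type values, with the nearest pair at 6.45 and 6.39. The means were 6.62 ± 0.23 against 6.33 ± 0.06 (SD, n = 3 each). The log2 fold change of 0.30 (SE 0.13, 95% interval -0.02 to 0.61; limma, unadjusted p = 0.0635, adjusted p = 0.615) did not pass, and it ran from 0.16 without knockout-labelled replicate 3 to 0.38 without knockout-labelled replicate 1. Over the 6 arrays Chrna5 and Chrnb4 had r = 0.857 (rho 0.543), Chrna3 and Chrna5 had r = 0.127 (rho 0.2) and Chrna3 and Chrnb4 had r = -0.29 (rho -0.543), given as a description. Whether a probe lies where Chrna5 and Chrna3 overlap is not given in the sources used here.

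Chrna2, the alpha2 subunit known from the interpeduncular nucleus, had the largest log2 fold change of the 9. Its levels were 5.73, 4.96 and 6.19 on knockout-labelled replicates 1, 2 and 3 and 4.70, 4.90 and 4.79 on wild-type replicates 1, 2 and 3. Replicates 1 and 3 of the knockout label stood clear of the wild-type arrays, and replicate 2 lay just above the highest of them. The means were 5.63 ± 0.62 against 4.80 ± 0.10 (SD, n = 3 each). The log2 fold change of 0.83 (SE 0.30, 95% interval 0.10 to 1.56; limma, unadjusted p = 0.0315) did not pass over all probe sets (adjusted p = 0.572). It ran from 0.55 without knockout-labelled replicate 3 to 1.16 without knockout-labelled replicate 2. All 3 wild-type levels were dimmer than that 40th percentile, in a range in which probe sets of like brightness had a median log2 fold change of 0.07.

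The serotonergic markers gave the only list score whose groups did not overlap, without members that passed the test. Chrna2 and Chrnb4 did not overlap either. Among single probe sets, 14.3% separated in either direction and 7.4% in the higher one. The 5 measured serotonergic markers were Tph2, Slc6a4, Gata3, Htr1a and Gata2, a list meant for the raphe cells that border the region. Their score read 0.322, 0.11 and 0.532 for replicates 1, 2 and 3 of the knockout label and 0.0627, 0.0159 and -0.0785 on wild-type replicates 1, 2 and 3, without overlap. All 5 had higher means, 2 of them at an unadjusted p under 0.05, where 8.27% of all probe sets lay, and 0 after adjustment (limma). In 2 of the 5, Slc6a4 and Tph2, the groups did not overlap, both in the higher direction, where 7.4% of all probe sets did so. The serotonin transporter gene Slc6a4 was at a log2 fold change of 0.58 (limma, adjusted p = 0.512), Tph2, the enzyme of neuronal serotonin synthesis, 0.33 (adjusted p = 0.566) and the transcription factor gene Gata3 0.39 (adjusted p = 0.725). Slc6a4 and Tph2 lay at the 36.4th and 36.8th percentiles of brightness, where probe sets of like brightness had a median log2 fold change of 0.077. These dim levels limit what can be read from both genes. Over the 6 arrays Chrna2 had r = 0.948 with Slc6a4 and 0.912 with Tph2, and Chrnb4 had r = 0.801 with Slc6a4 and 0.982 with Tph2. In each of these genes the groups did not overlap, which by itself raises r over the 6 arrays, so these values are a description only. The part of such cells in the subunit levels was not tested.

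Medial habenula markers, whose neurons send Chrna3 and Chrnb4 receptors to the interpeduncular nucleus, gave a mixed picture. Of 6 measured, 3 had higher and 3 lower means, 0 were called by limma and 1 had an unadjusted p under 0.05, with a median log2 fold change of -0.0059. Nwd2 was at 0.26 (adjusted p = 0.53), the transcription factor gene Pou4f1 at 0.59 (adjusted p = 0.707) and the peptide gene Tac2 at -0.31 (adjusted p = 0.725). Gpr151 of the same list was dim, at the 28.0th percentile of brightness. Whether the markers of this list read habenular cells in this tissue was not tested. Pou4f1 was among the 3 genes closest to Chrna5 (r = 0.989), with Svip and Copg1 (r = 0.99 for both). Correlations with the habenula score had r = 0.92 for Chrna2 (exact permutation p = 0.0333, rho 0.429) and r = 0.911 for Chrna5 (exact permutation p = 0.0111, rho 0.771), with adjusted p of 0.1 and 0.05. They rest on knockout-labelled replicates 1 and 3, since r was -0.856 and 0.364 without these arrays. For Chrna6 r was 0.904 (exact permutation p = 0.0139, adjusted 0.05, rho 0.829) and 0.551 without them. The other 6 subunits had r between -0.327 and 0.768 with this score, and adjusted p from 0.194 upward.

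Over all 36 pairs of subunits, the closest over the 6 arrays were Chrna6 and Chrnb3 (r = 0.899, rho 0.886), the neighbours on chromosome 8. The next were Chrna2 and Chrna5 (r = 0.872, rho 0.657), Chrna5 and Chrnb4 (r = 0.857) and Chrna2 and Chrnb4 (r = 0.854, rho 0.943). At the other end, Chrna3 and Chrna7 had r = -0.767 (rho -0.6). The values share 6 arrays whose marker scores differ, and they are a description. Closest to the remaining subunits were Ddc, the enzyme that makes dopamine from its precursor, for Chrna2 (r = 0.99), Atg4a for Chrna3 (0.999), Washc2 for Chrna4 (0.997), Ftx for Chrna7 (0.997), Slc7a10 for Chrnb2 (0.997) and Lrfn4 for Chrnb4 (0.992).

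**Figure D4:**
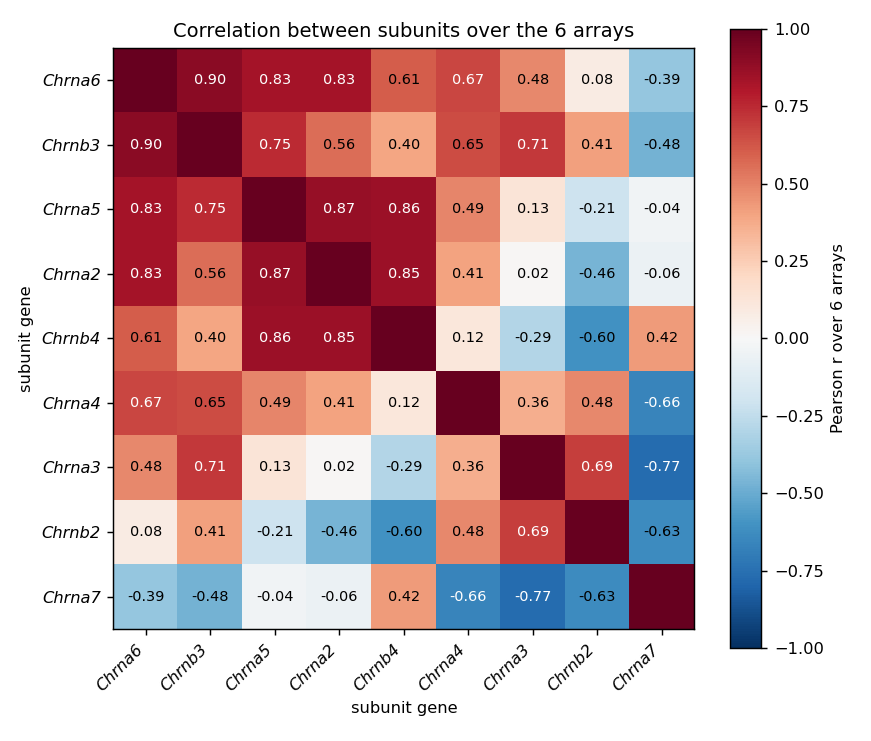
Pearson correlation over the 6 arrays for each pair of subunits, red for positive and blue for negative r. Chrna6 and Chrnb3 form the highest pair (0.899), Chrna5, Chrna2 and Chrnb4 have r of 0.854 to 0.872 with each other, and Chrna7 has negative r with most subunits.

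Knockout-labelled replicate 3 was the highest array for 5 of the 9 subunits and above the mean of all arrays for 8. Knockout-labelled replicate 2 was above that mean for 2 of 9, and wild-type replicate 3 for 1 of 9. The same arrays had the highest (0.243) and the lowest (-0.101 and -0.0866) dopaminergic scores. The score of 7 pan-neuronal markers stayed within -0.0497 to 0.0612 on all arrays, while single markers varied more, with a range of 0.39 for Rbfox3.

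The other genes of the pathway gave 0 calls with limma. Of 7 muscle and sensory subunits, which are dim in this tissue, 6 had higher means and the median log2 fold change was 0.09, with 0 at an unadjusted p under 0.05. All probe sets in their bins of mean level had medians of 0.077 and 0.067, so dim probe sets in general lay slightly higher. Values of these 7 subunits included Chrna9 at 0.27 (adjusted p = 0.629), Chrnd at 0.14 (0.772) and Chrna10 at 0.17 (0.831). Of 10 measured chaperones and Ly6-family modulators, which assist receptor assembly or bind receptors at the membrane, 4 had higher and 6 lower means, with a median of -0.06 and 0 at an unadjusted p under 0.05. Ly6h was at -0.27 (adjusted p = 0.612), Slurp1 at 0.30 (0.614) and Ly6g6e at 0.24 (0.664), and the chaperone genes Ric3 and Tmem35a at -0.10 (0.866) and -0.05 (0.906).

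Of 7 measured genes for acetylcholine synthesis, transport and breakdown, 3 had higher and 4 lower means, with a median of -0.05. Bche, the butyrylcholinesterase gene, had levels of 6.61, 6.31 and 6.54 against 6.81, 6.80 and 6.80 and was the list's gene with an unadjusted p under 0.05. All its knockout-labelled values lay below the wild-type ones, and its log2 fold change of -0.32 did not pass (limma, adjusted p = 0.552). The vesicular acetylcholine transporter gene Slc18a3 was at -0.29 (0.652), Prima1, the membrane anchor of acetylcholinesterase, at -0.15 (0.885), and Chat, the enzyme of acetylcholine synthesis, at 0.07 (0.891). Muscarinic receptors, the G protein-coupled receptors for acetylcholine, had 3 higher and 2 lower means of 5, a median of 0.14 and 0 at an unadjusted p under 0.05, with Chrm3 at -0.21 (adjusted p = 0.642), Chrm4 at 0.23 (0.763) and Chrm2 at 0.14 (0.842).

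Dopaminergic markers had higher means for 17 of 22 genes, where 40.7% of genes above the 40th percentile did, a median of 0.14 and 0 calls. At an unadjusted p under 0.05 there were 2, where 8.27% of all probe sets lay, Aldh1a1 at 0.26 (adjusted p = 0.564) and Calb1 at -0.28 (0.598). Lmx1a was at -0.32 (0.622), Th at 0.14 (0.822), Slc6a3 at 0.15 (0.782) and Slc18a2 at 0.17 (0.774), so the log2 fold change of Chrna6 (0.23) lay within the list's range of -0.32 to 0.26. Of 4 measured motor neuron markers 0 had a higher mean, with a median of -0.10 and 0 at an unadjusted p under 0.05. Only 2 of the 4 lay above the 40th percentile, where 40.7% of genes had a higher mean. Isl1 was at -0.58 (limma, adjusted p = 0.625). Mnx1 and Tbx20, dim at the 16.4th and 33.6th percentiles, were at -0.15 (0.747) and -0.05 (0.944). Markers of thalamus, cortex and hippocampus, neurons in general, astrocytes, oligodendrocytes, microglia and vessels had 0 members called, and 1 of them, Pdgfrb of vessels, had an unadjusted p under 0.05. Nearest protein-coding neighbours of the subunit genes that are not subunits themselves had log2 fold changes from -0.14 to 0.30 over 9 measured genes, with 0 called and 0 at an unadjusted p under 0.05.

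**Figure D5:**
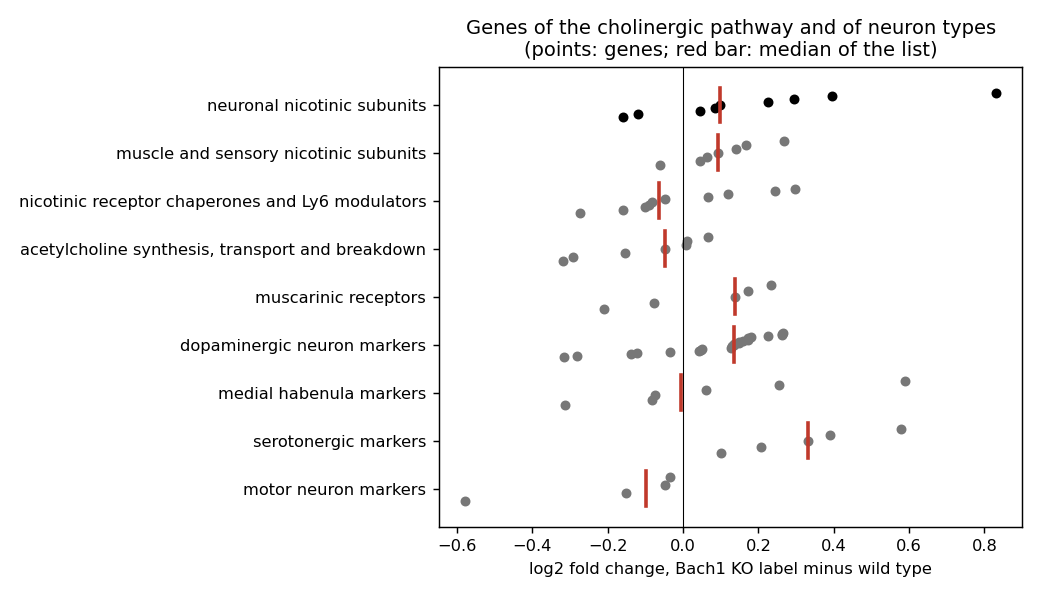
Log2 fold change (Bach1 KO label minus wild type, horizontal axis) of each measured gene, in rows by list, with the median of each list as a red bar. The subunits (black, median 0.10) span -0.16 to 0.83, the dopaminergic markers have a median of 0.14, and the serotonergic markers have the highest median of the lists drawn, 0.33.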

How the data were processed

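Total RNA of ventral midbrain was labelled with biotin and put on Affymetrix arrays, as the labels' protocols state. The authors deposited log2 levels per probe set made with RMA, per the submitters' processing notes, and its version is not given in the sources used here. RMA makes arrays alike in distribution and compresses dim differences. Array medians ran from 5.58 to 5.69, and 3 arrays a group limit the precision. There were 0 further columns of sample values. Symbols came from the platform annotation, updated through Entrez identifiers (23328 probe sets matched), and several probe sets of a gene are represented by the one with the highest mean. All 41345 probe sets were tested with limma 3.58.1 in R 4.3.3 (lmFit, eBayes, 6 arrays, no covariates), with Benjamini-Hochberg adjustment over all of them. The fit was tested on simulated data. Correlations and differences from the dopaminergic markers used exact permutations of arrays. The members and gene lists were chosen with earlier results of these data known. Named genes are the subunits, Bach1, Hmox1, Th, Slc6a3 and Slc18a2, up to 3 genes per list with the smallest p, and up to 3 genes closest to each subunit in r above the 40th percentile. Chat, Ric3 and Tmem35a and the markers with r above 0.9 were named after their values were seen. Lists of glia, vessels, general neurons and other regions, and the genes beside the subunits, are given mainly as counts. Alternatives were renewed quantile normalization, centring on medians, trended or robust variances, no dim probe sets, the replicate number as a block, and each array left out.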

Additional observations from a re-analysis of the deposited data

How the results depend on the processing

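Across 12 alternatives for each subunit (108 values), 0 subunits were called and 4 values changed sign. Chrnb3 was at -0.0025 when arrays were centred on their medians, which lowers every log2 fold change by the same amount, and from -0.137 to 0.248 with 1 array left out, and Chrna7 from -0.0314 to 0.218. The number of subunits with a higher mean ran from 6 to 7. The difference of Chrnb3 from the dopaminergic markers ran from -0.151 to 0.0761 with 1 array left out, and that of Chrna6 from 0.0769 to 0.238. With 1 array left out, ranges that crossed 0 were -0.296 to 0.0943 for Prima1, -0.187 to 0.0352 for Tbx20, -0.00568 to 0.344 for Chrna10 and -0.0161 to 0.262 for Chrm2, -0.00959 to 0.159 for Chat and -0.0863 to 0.00484 for Tmem35a. Over all probe sets, limma called 3, and 0 with any array left out or with the replicate block, where Hmox1 stood at 1.95 (log2, limma adjusted p = 0.544). Same-numbered arrays had correlations of deviations of 0.0864, -0.0326 and 0.0395, and differently numbered arrays ran from -0.0832 to 0.0462. Deviations within groups of 3 arrays cannot decide whether the replicate numbers pair the arrays. The block called 0 subunits. In the other 15 lists 0 members were called in all 180 counts. Each subunit had 1 probe set, so the alternative of averaging several was not run. Signal near background limits Chrna2.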
